A study of Mus musculus with 6 samples.

Results

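The nuclear factor I (NFI) family of transcription factors was followed in cultured mouse cerebellar granule neurons (CGNs). It has 4 genes, Nfia, Nfib, Nfic and Nfix, which were chosen by name among the 55341 gene symbols of the count tables, and all 4 passed the filter on low counts. The series held 6 poly(A) RNA-seq libraries of CGNs. In 3 the cells received DMSO, the vehicle, and in 3 GSK-126, which inhibits EZH2, the enzyme that trimethylates lysine 27 of histone H3 (H3K27me3). Agent and replicate number stood in the labels, but no genotype, dose or day, and they named cerebellum as the source although the titles named CGNs. According to the study's methods, granule cell precursors came from the pooled cerebella of early postnatal CD1-IGS litters of both sexes, the cultures of both groups received AraC against dividing non-neuronal cells, and the inhibitor was given once on the first or the third day in culture and the cells were taken on the fifth. Addition on the first day was read from the table names alone, since the labels are silent on it. Libraries held between 8058760 and 12047837 counts over genes, and the deepest library was GSK-126 replicate 1.

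NFI proteins bind DNA as dimers at the palindrome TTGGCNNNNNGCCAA or, more weakly, at one of its arms. They are known in the cerebellum for timing the maturation of granule neurons, where they act on genes of axons, dendrites and synapses after the cells have left the cell cycle, and elsewhere in the brain for moving neural progenitors towards neurons and glia. The comparison with DMSO asks whether blocking EZH2 in young neurons alters the level of these factors or of the genes known to respond to them.

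The members are paralogs, and the stretch of 30 coding bases in which they are most alike shows how close their transcripts are. It begins at coding base 73 in Nfia, 76 in Nfib, 142 in Nfic and 49 in Nfix (counted from the A of the start codon of the longest coding transcript in GENCODE M21). Capitals mark the bases that differ from Nfia, and the sequences run 5′ to 3′.
Nfia: gccttcgcctacacatggttcaacctgcag
Nfib: gcAAtTgcctaTacTtggttcaacctgcag
Nfic: gccttcgcctacacCtggttcaacctgcag
Nfix: gccttcTcctacacCtggttcaacctgcag
Nfic differed from Nfia at 1 of these bases, Nfix at 2 and Nfib at 5. Over the whole coding sequence (509, 570, 461 and 494 codons in Nfia, Nfib, Nfic and Nfix) identity ran from 63.9% for Nfib and Nfic to 70.7% for Nfia and Nfix. The longest exact run that any pair of members shared in any annotated transcript was 32 bases, between Nfic and Nfix, and the other 5 pairs shared from 18 to 25 bases. Reads were 150 bases long, so no whole read within a transcript of one member had an exact copy in another.

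All 4 NFI genes were well expressed in all 6 libraries, and no difference under GSK-126 passed the test. Nfix, known for its roles in skeletal muscle and in neural stem cells, had 486, 501 and 490.1 CPM (TMM-scaled counts per 1000000 counts) in DMSO replicates 1, 2 and 3 and 471, 469 and 436 CPM in the GSK-126 libraries. Every GSK-126 library was lower than every DMSO library for this gene. Nfib, which is required for the forebrain and lung to mature, had 358, 427 and 351 CPM with DMSO and 301, 416 and 329.6 CPM with GSK-126. Replicate 2 was highest in both groups and the groups overlapped. Nfic, known for its role in tooth root formation, had 176, 246 and 170.3 CPM with DMSO and 186, 155 and 176 CPM with GSK-126. DMSO replicate 2 stood above the other 5 libraries, its GSK-126 partner was the lowest of all, and the groups overlapped. Nfia, known as a switch to gliogenesis in the spinal cord, had 205, 171 and 164 CPM with DMSO and 183, 196 and 160.3 CPM with GSK-126, and the groups overlapped.

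**Figure D1:**
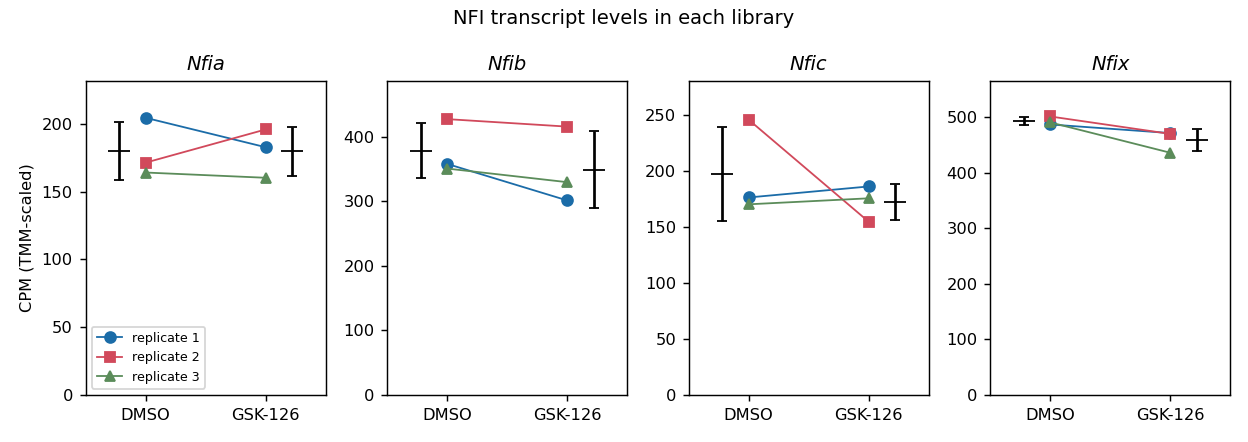
NFI transcript levels (CPM after TMM scaling, axis from 0) by library; lines join libraries with the same replicate number, and the bars beside them give the mean and SD of 3 libraries. Nfib and Nfix were lower with GSK-126 in each of the 3 pairs, and Nfic dropped in replicate 2 only.

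No member passed the test. By the quasi-likelihood test of edgeR, with Benjamini-Hochberg adjustment over 16343 genes and a threshold of 0.05, 0 of 4 members were called, where 0% of all genes tested were. At an unadjusted p under 0.05 there were 0 of 4 members and 981 of the 16343 genes. With the replicate number as a block 0 of 4 were called as well, against 3.65% of all genes (2.23% higher and 1.42% lower), and 0 of 4 had an unadjusted p under 0.05, against 16.7%. DESeq2 called 0 of 4 members without the block (0.361% of all genes) and with it (4.12%), and limma-voom called 0 of 4 (0% of all genes). DMSO and GSK-126 values were fully apart for 1 member, Nfix, and for 10.9% of all genes. The replicates were cultures of separate pooled litters in the study's terms. The counts behind the members ran from 1283 to 5655 per library, which gives a counting error of 1.62% to 2.79% at the lowest count of each member. In bulk RNA fewer cells of a type and less RNA per cell cannot be told apart.

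The mean level of Nfix was 492 ± 7.46 CPM in DMSO and 459 ± 20.0 CPM in GSK-126 libraries (SD, n = 3). The fitted difference was -0.10 in log2 units with an SE of 0.125 (edgeR adjusted p 0.908), and the 95% interval ran from a fall of 23.6% to a rise of 13.6%. With the block the interval narrowed to between -19.7% and 7.89% (edgeR adjusted p 0.661). Nfix gave the steadiest values of the family, with a coefficient of variation of 1.52% between DMSO libraries and 4.37% between GSK-126 libraries. Counting error alone gives 1.62% at its lowest count, which was that of GSK-126 replicate 3. Nfib had 379 ± 42.3 and 349 ± 59.6 CPM (SD, n = 3). It differed by -0.12 in log2 units with an SE of 0.165 (edgeR adjusted p 0.922) and a 95% interval from -29.1% to 19.7%. With the block Nfib had an interval from -21.3% to 6.74% (edgeR adjusted p 0.590). Both genes were lower with GSK-126 in 3 of 3 pairs, a pattern that 39.0% of all genes showed in one direction or the other.

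Nfic had 197 ± 41.9 CPM in DMSO and 172 ± 16.1 CPM in GSK-126 libraries (SD, n = 3). The log2 difference of -0.20 had an SE of 0.171 (edgeR adjusted p 0.866) and a 95% interval from -33.5% to 14.4%. With the block Nfic had an interval from -29.2% to 9.96% (edgeR adjusted p 0.593). The difference of Nfic rested on replicate 2. The log2 ratio within pairs was 0.08, -0.67 and 0.04 for replicates 1, 2 and 3, and without DMSO replicate 2 the log2 fold change was 0.00. Nfia had 180.0 ± 21.5 and 179.7 ± 18.0 CPM (SD, n = 3). The log2 difference of -0.00 had an SE of 0.143 (edgeR adjusted p 0.998) and a 95% interval from -20.4% to 25.1%. With the block Nfia had an interval from -15.5% to 18.0% (edgeR adjusted p 0.997). Its pairs went both ways, with log2 ratios of -0.16, 0.19 and -0.03. The median log2 fold change of the 4 members was -0.11, beside -0.00 over all 16343 genes tested. The intervals of all 4 genes included 0 without and with the block. They give the uncertainty of each estimate with 3 libraries a group, and do not show that a level was unchanged. The smallest detectable change was not tested.

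The responses of the members to GSK-126 were set side by side. Scaling cancels in the log2 ratio of the counts of 2 members of one library, and that ratio was compared between groups for all 6 pairs of members. The differences (GSK-126 minus DMSO) ran from -0.08 for Nfic over Nfix to 0.18 for Nfia over Nfic, and the exact permutation p-values (two-sided, 3 against 3 libraries, for which the smallest possible p is 0.1) were from 0.5 to 1, all 1 after adjustment over the 6 pairs. This test cannot reach 0.05 with 3 libraries a group and does not use the pairing, so it does not show that the members responded alike. The summed level of the family was 135, 149.5 and 131 CPM per kilobase of exon in the DMSO libraries and 129, 133 and 122 CPM per kilobase with GSK-126. It was lower in 3 of 3 pairs, with log2 ratios of -0.07, -0.17 and -0.10. The mean difference was -0.11 (exact permutation test, two-sided, p 0.2, which again cannot reach 0.05 and does not use the pairing). The groups did not separate, since GSK-126 replicate 2 lay above DMSO replicate 3.

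Per length, Nfix was the leading member in all 6 libraries. Divided by the length of all its annotated exons, its level was 67.0 ± 1.02 CPM per kilobase in DMSO and 62.4 ± 2.72 in GSK-126 libraries (SD, n = 3). This placed it between the 95.6 and 96.8 percentiles of all genes tested. It supplied 48.5% ± 2.71 of the family's summed level in DMSO and 48.7% ± 0.844 in GSK-126 libraries (SD, n = 3). Nfic followed with 29.8 ± 6.33 and 26.0 ± 2.43 CPM per kilobase, Nfib with 25.3 ± 2.83 and 23.3 ± 3.98, and Nfia was lowest with 16.5 ± 1.98 and 16.5 ± 1.66 (SD, n = 3 each). Within a library Nfix had 1.84 to 2.74 times the level of Nfic, and Nfib had 1.20 to 1.82 times the level of Nfia, with ranges that did not meet in either case. Nfic and Nfib overlapped, and Nfic was the higher of these in 5 of 6 libraries. Their order turned with the length used. With the mean length of the coding transcripts Nfib was second and was higher than Nfic in 3 of 6 libraries, and with the longest transcript it was higher in 6 of 6. Nfib has 14957 annotated exon bases but a longest transcript of 9116, so its level per length depends on this choice.

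**Figure D2:**
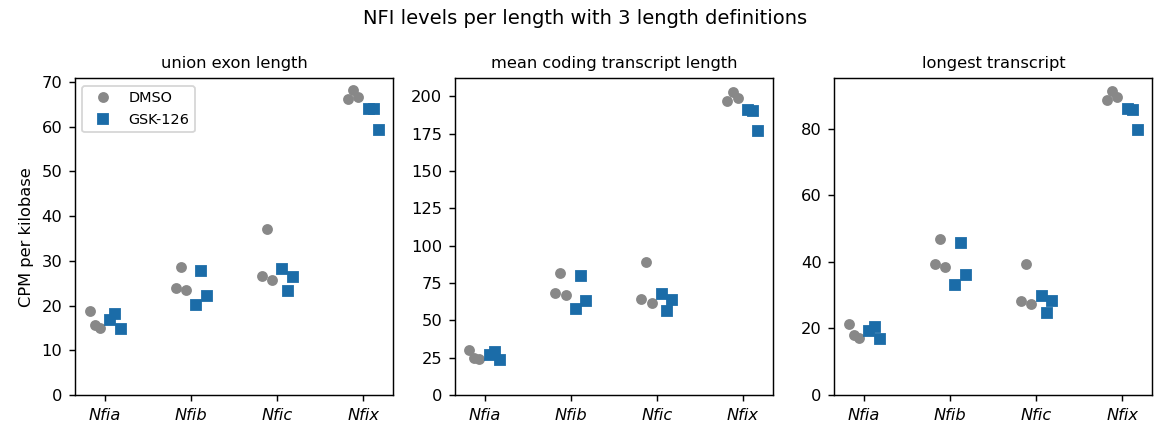
NFI levels in CPM per kilobase (axis from 0) for each library, with the length taken as all annotated exons, as the mean coding transcript and as the longest transcript. Nfix was the leading member and Nfia the lowest with each length, while Nfib and Nfic changed places.

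The genes lie apart in the genome (GRCm38): Nfia on chromosome 4 from 97772734 to 98118874, Nfib on chromosome 4 from 82290173 to 82705750, Nfic on chromosome 10 from 81396186 to 81455635 and Nfix on chromosome 8 from 84699876 to 84800344. Genes on the opposite strand overlap 0.0367% of the exon bases of Nfia, 1.09% of those of Nfic and 1.92% of those of Nfix, and 0% of those of Nfib. The overlapping genes held fewer reads than the members. The antisense gene Gm16104 at Nfic had from 89 to 165 counts per library, and at Nfix Lyl1 had from 21 to 65 and G430095P16Rik from 301 to 473. E130114P18Rik at Nfia had 219 in GSK-126 replicate 1 and from 46 to 94 in the other libraries.

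The members' levels varied in different ways over the 6 libraries. Pearson's r of log2 CPM between members ran from -0.28 for Nfia and Nfic to 0.47 for Nfib and Nfix (n = 6 libraries, which were taken as paired by their replicate number). Outside the family, the genes closest to Nfib were Atp2b1, which encodes a plasma membrane calcium pump (r = 0.998), and Fgf14, a regulator of sodium channels (r = 0.997), and 740 of 11419 genes with a mean of at least 10 CPM had an r of at least 0.9 with it. Like Nfib, Atp2b1 was highest in replicate 2 of both groups, at 791 CPM with DMSO and 765 CPM with GSK-126. Fewer genes followed the other members so closely, with 88 for Nfia (led by Chic2, Tmx1 and the adhesion molecule gene Cntn1, r = 0.99 each), 81 for Nfix (Lysmd2 0.99, Retreg2 0.98 and Mtg1 0.97) and 53 for Nfic (Gm37335 0.98, Prkrip1 0.97 and Nab2, a corepressor of EGR factors, 0.97). These correlations are descriptions over 6 points.

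Among 6 genes known as NFI targets in granule neurons, Gabra6 and Wnt7a were lower with GSK-126 in 3 of 3 pairs and fell in the fit with the block. Gabra6, the GABA-A receptor subunit that marks mature granule neurons, had 103, 209 and 86.5 CPM with DMSO and 33.1, 78.1 and 37.5 CPM with GSK-126. All GSK-126 libraries were below all DMSO libraries. Wnt7a, a ligand that shapes mossy fibre terminals, had 37.8, 51.3 and 27.4 CPM with DMSO and 14.6, 10.6 and 8.88 CPM with GSK-126, again without overlap. Of the 6 listed genes 0 were called without the block (0% of all genes), where 2 of 6 had an unadjusted p under 0.05 as did 981 of the 16343 genes, and 2 fell with it (1.42% of all genes called lower). Gabra6 had a log2 fold change with the block of -1.42 (SE 0.120, edgeR adjusted p 0.000340; 0.806 without it) and Wnt7a one of -1.75 (SE 0.194, adjusted p 0.00151; 0.465 without it). DESeq2 without the block called Wnt7a alone, and edgeR without a filter on low counts called both. Without the block and without DMSO replicate 2, the log2 fold change of Gabra6 was -0.93 and that of Wnt7a was -1.50. The list was chosen with earlier results of these data known, so its share beside that of all genes is a description.

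The other 4 target genes did not pass either test. The glutamate receptor subunit gene Grin2c had 8.65, 34.0 and 16.1 CPM with DMSO and 10.4, 20.7 and 14.0 CPM with GSK-126, with replicate 2 highest in both groups (edgeR adjusted p 0.908, and 0.630 with the block). Of its exon bases 1.81% also belong to an opposite-strand gene. Cntn2, which encodes the axonal adhesion molecule TAG-1 of young granule neurons, had 421 ± 65.9 and 359 ± 60.8 CPM (SD, n = 3), lower in 3 of 3 pairs, with an edgeR adjusted p of 0.292 with the block (0.853 without). The unadjusted edgeR p of Cntn2 with the block was 0.0473, where 16.7% of all genes were under 0.05. Cdh2, the gene of N-cadherin, had 136 ± 7.88 and 127 ± 5.65 CPM, and Efnb1, the gene of ephrin B1, had 42.9 ± 8.80 and 46.7 ± 6.45 CPM (SD, n = 3), with edgeR adjusted p-values of 0.902 and 0.927. The median log2 fold change of the 6 genes was -0.31 (-0.24 with the block), beside -0.00 over all genes tested.

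**Figure D3:**
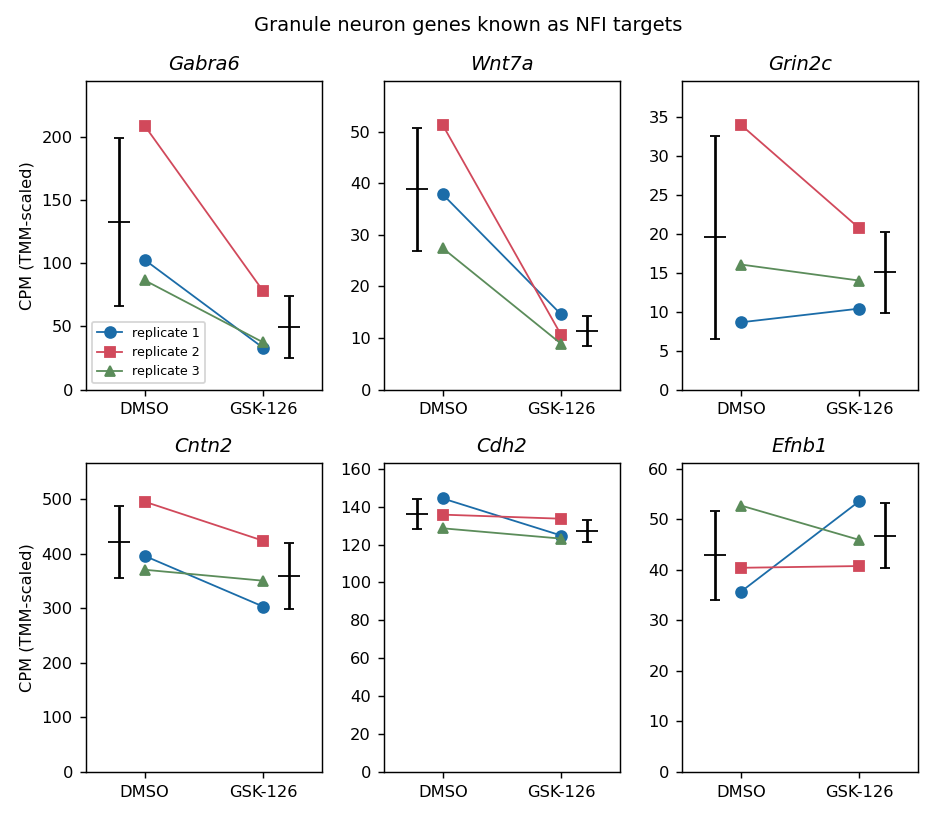
CPM (axis from 0) of 6 granule neuron genes known as NFI targets, with lines joining libraries of the same replicate number and bars for the mean and SD of 3 libraries. Gabra6 and Wnt7a were lower with GSK-126 in every pair and did not overlap between groups, whereas Grin2c and Efnb1 went both ways.

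Factors known to set the timing of NFI action were also read. Etv1, an ETS factor that acts beside NFI on late granule neuron genes, had 134, 273 and 139.7 CPM with DMSO and 54.9, 136 and 75.9 CPM with GSK-126. It was lower in 3 of 3 pairs, although GSK-126 replicate 2 lay above DMSO replicate 1. Ppp3ca, the catalytic subunit of calcineurin, had 841, 993 and 774 CPM with DMSO and 462, 659 and 472 CPM with GSK-126, without overlap. With the block, 2 of these 10 genes fell (1.42% of all genes did), Etv1 by a log2 difference of -1.06 with an SE of 0.116 (edgeR adjusted p 0.00139; 0.814 without the block) and Ppp3ca by one of -0.72 with an SE of 0.101 (edgeR adjusted p 0.00461; 0.768 without). None of the 10 was called higher with the block (2.23% of all genes were), and 0 were called without it (0% of all genes). Without the block 2 of 10 and 981 of the 16343 genes had an unadjusted p under 0.05. DESeq2 without the block called 0 of the 10, and edgeR without a filter on low counts called Etv1 alone. The other calcineurin genes Ppp3cb, Ppp3cc and Ppp3r1, the NFAT genes Nfatc1 to Nfatc4 and the repressor gene Rest were not called in either fit. Rest had a log2 fold change of 0.45 with the block (edgeR adjusted p 0.147). With the block the unadjusted edgeR p was also under 0.05 for Rest (0.0117), Nfatc1 (0.0440), Ppp3r1 (0.0440) and Ppp3cb (0.0487), as for 16.7% of all genes. Rest and Nfatc1 were higher in 3 of 3 pairs, and Ppp3r1 and Ppp3cb were lower in 3 of 3. The median of the 10 genes was 0.05. This list too was chosen with earlier results of these data known, so its shares are descriptions.

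**Figure D4:**
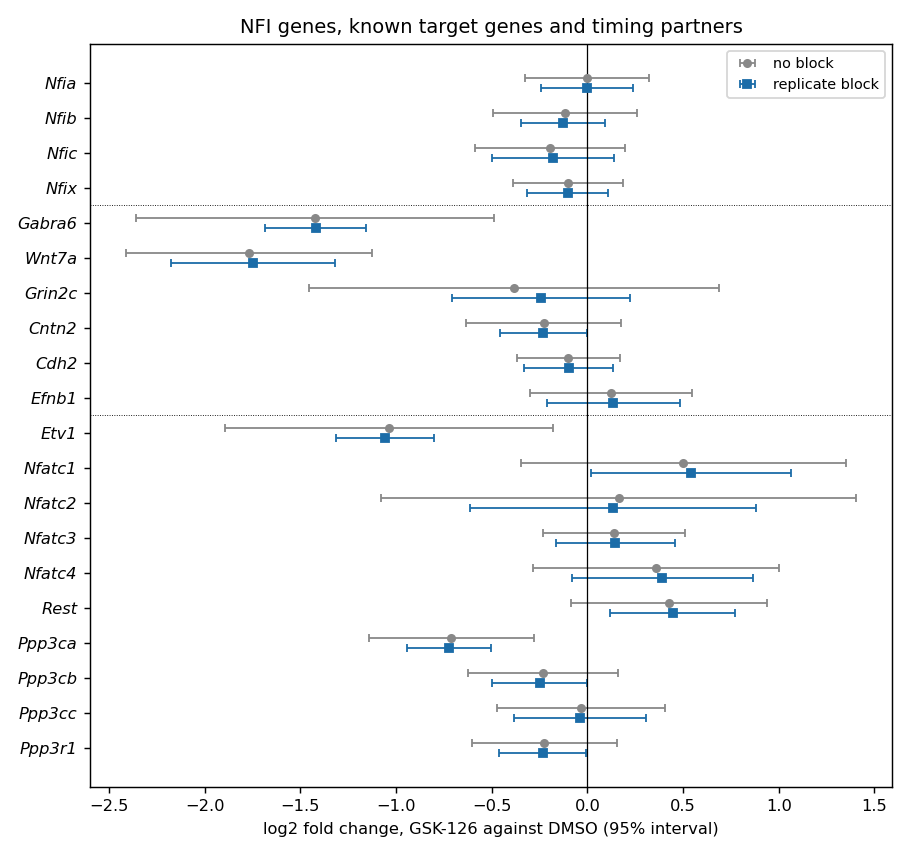
Log2 fold change of GSK-126 against DMSO with its 95% interval (edgeR quasi-likelihood fit, not adjusted for the number of genes), without a block in grey and with the replicate block in blue, for the 4 NFI genes, 6 known target genes and 10 timing partners, divided by dotted lines. The intervals of the NFI genes include 0 in both fits, while Gabra6, Wnt7a, Etv1 and Ppp3ca lay below 0 in both.

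The windows around annotated start sites (RefSeq, GRCm38.p6, 250 bases before to 50 after the start) were searched on both strands for the NFI palindrome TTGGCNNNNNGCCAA and for its arm with one more base, TTGGCA. The arm was in 14.1% of all 32851 windows and the palindrome in 0.0365%. The windows of Nfia, Nfic and Nfix (6 windows for 3 genes, with none in the table for Nfib) held neither. These windows do not lie at the outermost gene starts given above, which were not searched. That of Nfia (chr4:97581693-97581992) lies before the gene, and those of Nfic (chr10:81427124-81427423) and Nfix (chr8, between 84772826 and 84780332) lie inside the genes. Of the 4 genes that fell with the block, Gabra6 and Etv1 each held 1 arm, Wnt7a held none and Ppp3ca had no window in the table. Genes of the lists that were not called held it too, namely Nfatc2, S100b, Mmd2, Ezh2 and Insc, so that 2 of 7 windows of the glial genes and 2 of 2 of the progenitor genes had the arm. The arms of Gabra6 and Etv1 are shown, as those of genes that fell, within 30 bases, with the search letters in capitals, 5′ to 3′ on the strand of the gene. The stretch of Gabra6 lies on the minus strand at chr11:42321105-42321134, and its arm begins 50 bases before the start site and reads TGCCAA, the letters of the arm on the other strand. The stretch of Etv1 lies on the plus strand at chr12:38783514-38783543, and its arm begins 185 bases before the second of 2 starts.
Gabra6: attcgaagtccaTGCCAAaactagccgtgg
Etv1: tcacatctgcttTTGGCAagaactaatgca
Of the 5 target genes with a window 1 held the arm (20%), beside 14.1% of all windows, and a match of letters is not a shown binding site.

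Genes that NFI factors are known to raise in glia and to repress in progenitors were not called. Of 8 glial genes 0 passed in edgeR without or with the block or in DESeq2 or limma-voom, while 0 of 8 had an unadjusted p under 0.05 without the block and 4 of 8 with it (16.7% of all genes), and their median log2 fold change was -0.00. The 3 with the smallest p with the block were S100b, a calcium-binding protein of astrocytes, Fabp7, a fatty acid binding protein of radial and Bergmann glia, and Mmd2. S100b had 42.2, 26.4 and 50.8 CPM with DMSO and 84.1, 38.1 and 58.0 CPM with GSK-126, higher in 3 of 3 pairs (edgeR adjusted p with the block 0.0737). Fabp7 had 546 ± 174 and 446 ± 230 CPM and Mmd2 had 60.7 ± 10.4 and 47.9 ± 8.13 CPM (SD, n = 3), both lower in 3 of 3 pairs (edgeR adjusted p with the block 0.151 and 0.207). With the block and without replicate 1 Fabp7 was called, and without replicate 3 S100b was.

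Of 5 progenitor genes 0 passed in any of these fits and 0 had an unadjusted p under 0.05 in edgeR without or with the block. All 5 had log2 fold changes above 0, with a median of 0.14. Among them the Notch effector Hes1 had 17.0 ± 2.35 CPM with DMSO and 19.7 ± 2.88 CPM with GSK-126, Bbx had 44.2 ± 2.75 and 49.6 ± 7.62 CPM, and Sox9, a factor of glial progenitors, had 64.5 ± 25.2 and 70.7 ± 32.6 CPM (SD, n = 3). For all 3 the SD between GSK-126 libraries was wider than the difference between the means, but this SD does not use the pairing. Within pairs Hes1 was higher in 3 of 3 (log2 ratios 0.23, 0.18 and 0.20) and Sox9 in 3 of 3 (0.24, 0.01 and 0.06). Bbx was higher in 2 of 3. One direction in all 3 pairs was shown by 39.0% of all genes.

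The libraries carried RNA of other cells, some of which express NFI genes. The granule neuron markers Neurod1, Pax6, Zic1 and Rbfox3 were present in all 6 libraries, as were 5 of the 7 precursor markers, Mycn, Mki67, Top2a, Ccnd1 and Ccnd2, while Atoh1 and Gli1 had at most 7 counts per library. The summed level of 9 astrocyte markers, led by Gfap, was 7895, 2722 and 4883 CPM in DMSO replicates 1, 2 and 3. With GSK-126 it was 8122, 2713 and 4217 CPM, with the same order of replicates as with DMSO. Of the 9 markers, 5 had log2 fold changes above 0 and 4 below. S100b and Sox9 were higher in 3 of 3 pairs, and Aqp4, Slc1a3 and Fabp7 were lower in 3 of 3. Nfib was highest in replicate 2 of both groups, where the astrocyte sum was lowest and the sum of the granule neuron markers was highest. No other member was highest in replicate 2 of both groups. Nfic had its highest DMSO level there (246 CPM) but its lowest GSK-126 level (155 CPM), and Nfia was highest in DMSO replicate 1 (205 CPM). The sum of 8 granule neuron markers ran from 4193 to 5309 CPM with DMSO and from 3015 to 4566 with GSK-126. With the block 3 of the 8 (Neurod1, Rbfox3 and Etv1) fell, as did 1.42% of all genes. Of the 8, 6 had log2 fold changes below 0 and 2 above. These 2 were Barhl1, with a mean of 80.1 CPM with DMSO and 106 CPM with GSK-126 (higher in 3 of 3 pairs), and Pax6, with 176 and 181 CPM. Sums of 7 microglia markers ran from 224 to 384 CPM with DMSO and from 268 to 592 with GSK-126. Sums of 7 endothelial and mural markers ran from 474 to 745 and from 814 to 1016 CPM, of 8 oligodendrocyte lineage markers from 431 to 656 and from 495 to 783, of 7 GABAergic markers from 197 to 264 and from 172 to 197, and of 7 precursor markers from 471 to 712 and from 647 to 1021. With the block, some markers of these lists were called higher (2.23% of all genes were). They were Mycn and Ccnd2 of the precursor list, and Pdgfrb and Acta2 of the endothelial and mural list. C1qb of the microglia list and Cspg4 of the oligodendrocyte lineage list were also among them. Slc32a1 of the GABAergic list was called lower (1.42%), and 0 of 9 astrocyte markers were called. Markers within a list did not all move together. Mean CPM with DMSO and GSK-126 was 11.7 and 11.6 for the endothelial gene Kdr, and 49.6 and 40.2 for Cdh5. The endothelial genes Pecam1 (1.66 and 2.19 CPM) and Cldn5 (0.233 and 1.08 CPM) were higher, at low levels. Of the 5 precursor markers tested, 4 had log2 fold changes above 0, and Top2a had 102 and 100 CPM. Of the 8 oligodendrocyte lineage markers 5 had log2 fold changes above 0 and 3 below, with Pdgfra at 95.8 and 80.8 CPM. All 7 microglia markers had log2 fold changes above 0, with Cx3cr1 at 31.1 and 32.2 CPM. The part of these cells in the values of the NFI genes and their targets was not tested.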

How the data were processed

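The authors deposited 1 table of whole-number read counts per gene symbol for each of the 6 libraries, not normalized. The submitters' processing notes name Trimmomatic 0.38 and STAR 2.7.2b, and the strand setting of the counting is not given in the sources used here. The 5 summary rows were left out, of which reads assigned to no feature made up 44.8% to 46.7% of the entries. The study's methods counted reads over exons, so reads in introns can be among them. The part of introns and of the strand setting in this share was not tested. From the counts, the GSK-126 libraries were compared with the DMSO libraries in edgeR 4.0.16 (filterByExpr, TMM scaling, quasi-likelihood F test, Benjamini-Hochberg adjustment over 16343 genes, threshold 0.05). Alternatives were the replicate number as a block, DESeq2 1.42.0, limma-voom (limma 3.58.1), other size factors, no filter and leaving out libraries.

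The study's methods define a replicate as pooled litters. Deviations from the group means correlated at 0.35, 0.50 and 0.52 between libraries with the same number and at -0.41 to -0.01 between others, so the numbers were taken to pair the libraries, and the blocked value is given where it changes a call. No 2 libraries agreed within sampling noise (lowest chi-square per degree of freedom 9.98). The total count per library, 8058760 to 12047837, puts the floor of 3 counts at 0.249 to 0.372 CPM, for counting error only.

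The members and all gene lists were chosen with earlier results of these data known. Genes named are the members, every listed granule neuron target, from each other NFI list the called genes or otherwise the 3 with the smallest p with the block, genes whose exons overlap a member, and the 3 genes most correlated with each member (Pearson's r of log2 CPM with a prior count of 2). One gene that this rule names is not reported here. Some further listed genes are named only to complete a list. Coordinates, exon lengths and transcripts come from GENCODE M21 (GRCm38), promoter windows from RefSeq, and coding sequences were aligned with MAFFT 7.526. The fits were tested on simulated data.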

Additional observations from a re-analysis of the deposited data

How the results depend on the processing

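In all 15 alternative fits 0 of the 4 NFI genes were called, and the smallest adjusted p was 0.275. Nfib (-0.26 to -0.01) and Nfix (-0.13 to -0.07) kept their direction in each of these fits. Nfia, at -0.00, changed sign with the DESeq2 replicate block (0.00) and without a low-count filter (0.00), and leaving out 1 library gave -0.07 to 0.11. With the block, leaving out a pair gave -0.08 to 0.08 (0.02 without replicate 3). Nfic ranged from -0.28 to 0.00 when 1 library was left out, the top value being that without DMSO replicate 2. In blocked fits without a pair it lay between -0.31 and 0.08, the top value again without replicate 2.

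With the replicate block 365 genes were called higher and 232 lower, against 0 and 0 without it, and 2 of the 6 granule neuron targets were called. The corresponding counts were 46, 13 and 1 in DESeq2, 408, 266 and 2 in DESeq2 with the block, and 55, 30 and 2 in edgeR without a low-count filter. With the block, 396, 125 and 211 genes were higher and 308, 53 and 148 lower without replicates 1, 2 and 3, and 2 targets were called each time. Without the block, leaving out 1 library gave 0 called. The cause of these differences was not tested. In level per length Nfib moved from place 3 to place 2 with either other length, and the summed level kept its direction in 7 of 7 alternatives (-0.15 to -0.06). With 3 libraries a group, the intervals given for each gene show the uncertainty of its estimate. The smallest detectable change was not tested.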
